A study of Mus musculus with 6 samples.

Results

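FGF ligands, FGF receptors and HGF were examined in the cancer-associated fibroblasts (CAFs) of colitis-associated colonic adenomas. The members were the 10 rows, of 49548 genes in the deposited table, whose gene name was Fgf1, Fgf2, Fgf7, Fgf9, Fgf10, Fgf18, Fgfr1, Fgfr2, Fgfr3 or Hgf. They comprise 6 ligands, 3 receptors and Hgf. The rule used the names and no measured value, but the members were chosen with earlier results of these data known. The data are 3′ mRNA sequencing (QuantSeq) of 6 libraries, 3 of Col6a1+ CAFs (Col6a1Cre-GFP+) and 3 of Col6a1− CAFs (Col6a1Cre-Tomato+). Every library came from mice on the C57/BL6 strain that carried Col6a1-cre and Rosa26-mTmG and developed adenomas after azoxymethane and dextran sodium sulfate (AOM/DSS), given from young adulthood. Each library was made from a pool of tumors of several mice, so values of single animals were not measured. Cells positive for CD45, EpCAM, CD31 or Ter119 were removed in the sort, which takes out immune, epithelial, endothelial and erythroid cells. The mTmG reporter turns permanently from Tomato to GFP where Cre has been active, so GFP marks cells with a history of Col6a1Cre activity. According to the study, this driver targets mainly PDGFRα-high fibroblasts and pericytes of the intestine, while the Tomato+ gate holds the other stromal cells together.

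Fibroblast growth factors are secreted ligands that bind receptor tyrosine kinases (FGFR) together with heparan sulfate. Fgf7 and Fgf10 are typical stromal ligands for the epithelial splice form of FGFR2, whereas Fgf1 and Fgf2 bind many receptor forms. Active receptors signal through the adaptor FRS2 to the MAP kinase cascade, which induces ETV transcription factors and the feedback inhibitors of the Sprouty and DUSP families. Hepatocyte growth factor, encoded by Hgf, is made by mesenchymal cells as an inactive precursor and, once cleaved, acts on the epithelial receptor MET. In the gut, ligands of both families are known as stromal signals for epithelial growth and repair.

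Values are the authors' normalized counts, which are not divided by gene length, so levels are compared here only between libraries for the same gene. Fold changes are the mean log2(normalized count + 1) of Col6a1+ minus that of Col6a1− CAFs, tested with limma over the 26402 genes whose normalized counts summed to 1 or more and adjusted after Benjamini and Hochberg. They are given with their standard error (SE). All 10 members passed this filter, and 9 of them averaged 10 or more normalized counts. Nothing beyond the pooling separates the libraries of a subset, so p-values measure the spread between these pooled samples.

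The libraries held between 3039152 and 3425249 normalized counts. Col6a1+ replicate 1 stood apart, with 14530 genes detected against 18770 to 20511 in the other 5 libraries. The 6 fibroblast markers (Col1a1, Col1a2, Col3a1, Dcn, Lum and Pdgfra) were detected in every library, with summed levels of 37468 to 41177 normalized counts in Col6a1+ and 6799 to 13785 in Col6a1− CAFs. All 6 had positive log2 fold changes and 4 passed a limma adjusted p of 0.05, but not Dcn or Lum, and the subsets overlapped for Lum. The 7 pericyte markers summed to between 41437 and 90948 normalized counts in Col6a1+ and between 1147 and 2141 in Col6a1− CAFs, and all 7 passed an adjusted p of 0.05. In spite of the sort, the 12 epithelial markers were present in both subsets, with sums of 5896 to 6654 normalized counts in Col6a1+ and 20241 to 34496 in Col6a1− CAFs. All 12 had negative log2 fold changes, and 7 passed an adjusted p of 0.05. None of the 12 was at 0 in every library, and Slc26a3 was at 0 in Col6a1+ replicate 1. Immune markers summed to 35 to 67 normalized counts in Col6a1+ and 269 to 454 in Col6a1− libraries, and endothelial markers to 148 to 286 and 203 to 470. In bulk libraries, fewer cells of a type and less RNA per cell cannot be told apart.

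The receptors Fgfr1 and Fgfr3, the ligands Fgf1, Fgf2 and Fgf9, and Hgf had higher mean levels in Col6a1+ CAFs. Fgfr2, Fgf7, Fgf10 and Fgf18 had their higher means in Col6a1− CAFs. Of the 10 members, 1 passed an adjusted p of 0.05 with a higher level in Col6a1+ CAFs, namely Fgfr1, where 2.66% of all genes tested passed in this direction. No member passed in the other direction in limma (1.96% of all genes). In that fit and in limma-voom, 0 did so at an unadjusted p under 0.05 (9.4% of all genes in the former). Fgfr2 had an unadjusted limma p of 0.0334 with the replicate block and 0.0454 with array weights. It did not pass after adjustment in either. For 3 members, Fgf1, Fgfr1 and Fgfr3, the Col6a1+ libraries were all above the Col6a1− libraries, as for 7.91% of all genes tested, and for none were they all below, as for 11.6%. When p was left unadjusted at 0.05 and the log2 fold change had to exceed 1 in size, Fgf2, Fgfr1 and Fgfr3 passed, all higher in Col6a1+ CAFs, beside 6.09% of all genes in this direction and 8.61% in the other. The median log2 fold change was 0.89 over the 10 members and -0.27 over all genes tested.

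**Figure D1:**
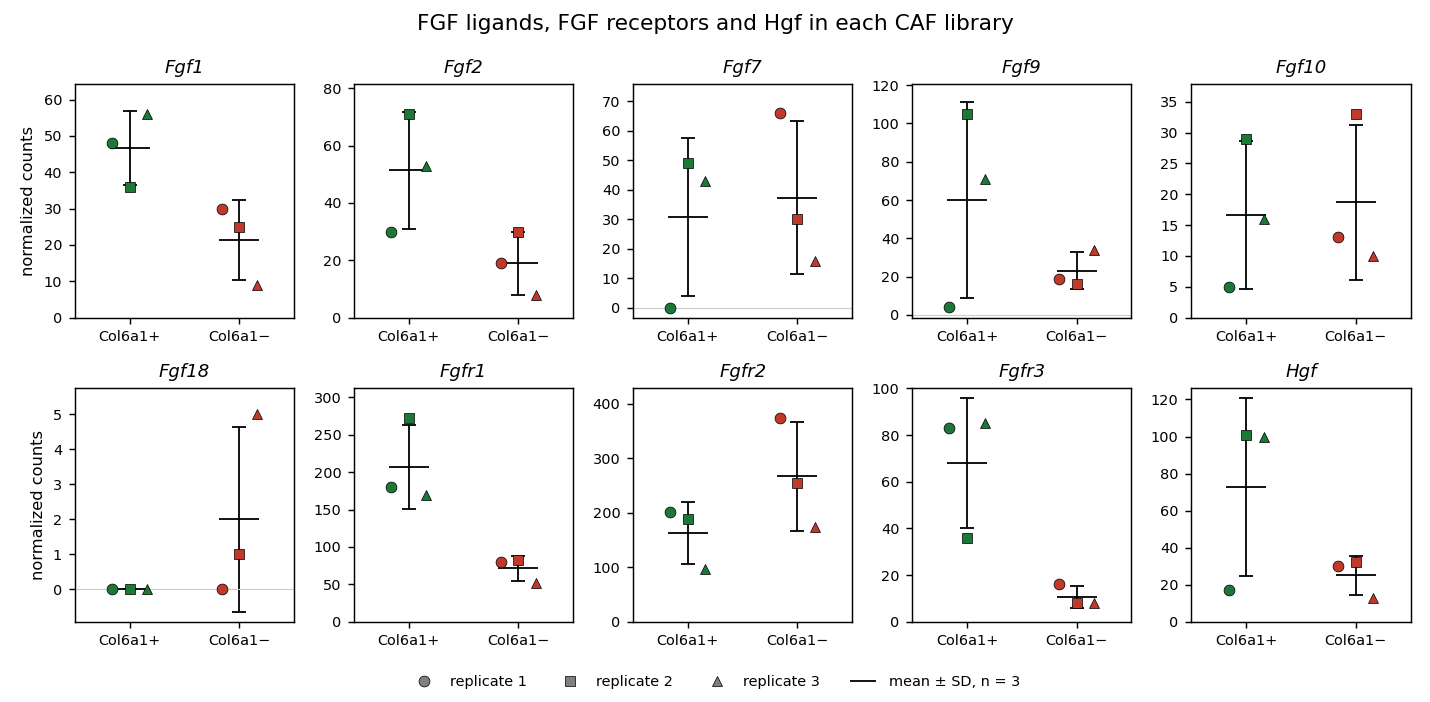
Normalized counts (y axis, linear, a separate scale for each gene) of the 10 members in the 3 Col6a1+ (green) and 3 Col6a1− (red) CAF libraries, with symbols for the replicate number and bars for the mean ± SD. The subsets are separate for Fgf1, Fgfr1 and Fgfr3, and the circle of Col6a1+ replicate 1 lies far below the other 2 Col6a1+ libraries for Fgf7, Fgf9, Fgf10 and Hgf.

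Among the receptors, Fgfr1 (ENSMUSG00000031565, chromosome 8 from 25513654 to 25575718 of mm10), a receptor typical of mesenchymal cells, had 180, 272 and 169 normalized counts in the Col6a1+ libraries and 80, 82 and 52 in the Col6a1− libraries. The lowest Col6a1+ library was more than 2-fold above the highest Col6a1− library. The means were 207 ± 56.6 and 71.3 ± 16.8 (SD, n = 3 each), a ratio of 2.90, and Fgfr1 rose by 1.52 on the log2 scale (SE 0.38, limma adjusted p = 0.0488). Blocking on replicate number gave an adjusted p of 0.102, under which 0 of all genes passed (4418 at an unadjusted p under 0.05), and the same block gave 0.0219 over the 13515 genes that averaged 10 or more. The call was also lost when any 1 library was left out, with log2 fold changes between 1.31 and 1.65 in these fits and an adjusted p of 0.0697 without Col6a1+ replicate 1. In these fits between 11 and 453 of all genes were called higher, against 703 with all 6 libraries. Over all alternatives the adjusted p of Fgfr1 ranged from 0.0188 to 0.181. The fibroblast and pericyte markers above were also higher in Col6a1+ CAFs, and their part in the level of Fgfr1 was not tested.

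Fgfr3 (ENSMUSG00000054252, chromosome 5 from 33721674 to 33737068), a receptor for Fgf9 and Fgf18 among other ligands, had the largest log2 fold change of the 10 members in the fit of all 6 libraries. It had 83, 36 and 85 normalized counts in the Col6a1+ libraries and 16, 8 and 8 in the Col6a1− libraries. The subsets did not overlap, and Col6a1+ replicate 2 was the lowest of its group. The means of 68 ± 27.7 and 10.7 ± 4.62 (SD, n = 3 each) gave a ratio of 6.38, and the log2 fold change from the mean log values was 2.53 (SE 0.64, 95% confidence interval 1.11 to 3.96). The limma adjusted p of 0.0523 did not pass over all genes tested. It passed over the 13515 genes that averaged 10 or more (adjusted p = 0.0331, where 6.03% of the genes were called higher), and its range over the alternatives was 0.0234 to 0.228. Blocking on replicate number gave 0.112. Leaving out 1 library at a time gave log2 fold changes between 2.33 and 2.93.

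Fgfr2 (ENSMUSG00000030849, chromosome 7 from 130162451 to 133123350, minus strand), whose epithelial form receives Fgf7 and Fgf10, had 201, 189 and 97 normalized counts in the Col6a1+ libraries and 373, 254 and 174 in the Col6a1− libraries. The subsets overlapped, since 2 Col6a1+ libraries lay above Col6a1− replicate 3. Within each replicate number, the Col6a1+ library was the lower. The means were 162 ± 56.9 and 267 ± 100 (SD, n = 3 each), which is -0.72 on the log2 scale (SE 0.41, 95% confidence interval -1.62 to 0.19, limma adjusted p = 0.434). With the replicate block the SE was 0.24, with an unadjusted limma p of 0.0334 and an adjusted p of 0.248. Over genes averaging 10 or more, the blocked limma adjusted p was 0.143. The epithelial markers had their higher levels in the same subset as Fgfr2, and their part in it was not tested. The annotated interval of Fgfr2 spans 2960900 bases and holds 69 other annotated genes, of which 29 had more than 3 normalized counts in a library. The RefSeq promoter matched for Fgfr2 lies inside this interval, at 130266859 to 130267058, and most of the interval is upstream of that promoter. Dmbt1, which lies in this upstream part on the other strand, had 2518 to 5343 normalized counts in the Col6a1− libraries, far above those of Fgfr2 in the same libraries. Htra1, in the same part and strand as Dmbt1, had 2529, 1416 and 1170 normalized counts in Col6a1+ and 2108, 653 and 584 in Col6a1− libraries. Within each replicate number, Htra1 was thus higher in the Col6a1+ library. The sources used here do not state whether exons or whole gene bodies were counted, or whether strand was used, so the counts of Fgfr2 are uncertain. Reads of 3′ ends do not tell the epithelial and mesenchymal splice forms of a receptor apart.

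The promoter regions of Fgfr3, Hgf and Fgf7 are shown because these genes stand for the differing patterns among the members, namely separate subsets for Fgfr3 and a Col6a1+ library far below the other 2 for Hgf and Fgf7. RefSeq lists a second promoter for Fgfr3 and Hgf further downstream, which is not shown. Each stretch runs from 250 to 51 bases before a RefSeq start (GRCm38.p6, the assembly of mm10), on the gene's own plus strand, at chr5:33721474-33721673, chr5:16553245-16553444 and chr2:126034408-126034607. Capitals mark the GC box, GGGCGG on either strand.
Fgfr3: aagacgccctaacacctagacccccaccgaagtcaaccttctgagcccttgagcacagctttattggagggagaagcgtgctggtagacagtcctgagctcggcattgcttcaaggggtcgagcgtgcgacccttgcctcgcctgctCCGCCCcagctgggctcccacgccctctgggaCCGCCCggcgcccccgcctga
Hgf: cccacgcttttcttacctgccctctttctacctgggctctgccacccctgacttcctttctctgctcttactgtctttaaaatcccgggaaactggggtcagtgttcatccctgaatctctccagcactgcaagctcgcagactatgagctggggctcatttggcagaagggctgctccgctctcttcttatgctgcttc
Fgf7: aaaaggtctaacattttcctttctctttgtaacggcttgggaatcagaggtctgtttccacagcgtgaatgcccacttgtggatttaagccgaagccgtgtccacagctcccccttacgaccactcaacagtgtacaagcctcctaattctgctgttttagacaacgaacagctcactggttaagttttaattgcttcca
The Fgfr3 stretch had a GC content of 65.0% and 2 GC boxes, against a median GC content of 51.5% over the 32851 promoters of the table, of which 24.6% held a GC box in the same stretch. The Hgf and Fgf7 stretches had a GC content of 53.5% and 45.5% and no GC box. The TATA box (TATAAA), the AP-1 motif (TGANTCA) and the CArG box, searched on both strands, were in none of the 3 stretches, but in 9.14%, 5.57% and 1.16% of all promoters. The motifs are matches of letters only. Promoters were matched for 8 of the 10 members by symbol.

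Of the ligands, Fgf1 (ENSMUSG00000036585, chromosome 18 from 38838673 to 38929404), which binds all FGF receptors, had 48, 36 and 56 normalized counts in the Col6a1+ libraries and 30, 25 and 9 in the Col6a1− libraries. The subsets did not overlap, but the gap between 36 and 30 was small against the spread within them. The log2 fold change of 1.23 (SE 0.62, 95% confidence interval -0.16 to 2.61) had a limma adjusted p of 0.377. Fgf1 lies within Arhgap26, which is on the other strand. Arhgap26 had 125, 47 and 31 normalized counts in the Col6a1+ and 38, 72 and 21 in the Col6a1− libraries. The counting is not stated to use the strand, so the level of Fgf1 is uncertain.

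Fgf2 (ENSMUSG00000037225, chromosome 3 from 37348346 to 37410108), an angiogenic ligand that is stored on heparan sulfate, had 30, 71 and 53 normalized counts in Col6a1+ CAFs and 19, 30 and 8 in Col6a1− CAFs. Col6a1+ replicate 1 and Col6a1− replicate 2 had the same value, and the other libraries were separate. The log2 fold change was 1.48 (SE 0.66, 95% confidence interval 0.0071 to 2.95, limma adjusted p = 0.309). Nudt6 overlaps the end of Fgf2 on the other strand from 37404910 to 37410108, and had 5, 12 and 19 normalized counts in Col6a1+ and 34, 9 and 5 in Col6a1− libraries. Reads of 3′ ends fall there, so the counts of Fgf2 are uncertain.

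Fgf9 (ENSMUSG00000021974, chromosome 14 from 58070547 to 58112337), which signals to mesenchymal receptor forms, had 4, 105 and 71 normalized counts in the Col6a1+ libraries and 19, 16 and 34 in the Col6a1− libraries. The Col6a1+ libraries thus lay on both sides of the other subset. The log2 fold change over all 6 libraries was 0.56 (SE 1.04, limma adjusted p = 0.779). Without Col6a1+ replicate 1 it was 1.94 (SE 0.46, limma adjusted p = 0.0809), and without Col6a1+ replicate 2 it was -0.27.

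Hgf (ENSMUSG00000028864, chromosome 5 from 16553495 to 16620152) also had a low Col6a1+ replicate 1, with 17, 101 and 100 normalized counts in Col6a1+ CAFs and 30, 32 and 13 in Col6a1− CAFs. Col6a1+ replicate 1 lay within the range of the Col6a1− libraries, while the other 2 Col6a1+ libraries were at least 3-fold above all of them. The means were 72.7 ± 48.2 and 25 ± 10.4 (SD, n = 3 each), and the log2 fold change, taken from the mean log values, was 1.23 (SE 0.75, limma adjusted p = 0.476). Without Col6a1+ replicate 1 the log2 fold change was 2.06 (SE 0.48, limma adjusted p = 0.0770). Gm43489, an annotated gene inside Hgf on the same strand, had 17, 47 and 72 normalized counts in Col6a1+ and 6, 14 and 9 in Col6a1− libraries, so that reads of the 2 genes may not be separate.

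Fgf7 (ENSMUSG00000027208, chromosome 2 from 126034658 to 126091185), the keratinocyte growth factor, had 0, 49 and 43 normalized counts in Col6a1+ CAFs and 66, 30 and 16 in Col6a1− CAFs. Apart from the 0 of Col6a1+ replicate 1, which allows up to 3 counts, the Col6a1+ libraries lay within the range of the Col6a1− libraries. The log2 fold change was -1.34 (SE 1.35, 95% confidence interval -4.33 to 1.66, limma adjusted p = 0.642) and turned to 0.52 without Col6a1+ replicate 1. For Fgf10 (ENSMUSG00000021732, chromosome 13 from 118669791 to 118792115), the ligand closest to Fgf7 in its use of the epithelial form of FGFR2, normalized counts were 5, 29 and 16 in the Col6a1+ libraries and 13, 33 and 10 in the Col6a1− libraries. The groups overlapped almost fully. Its log2 fold change was -0.26 (SE 0.87, 95% confidence interval -2.20 to 1.68, limma adjusted p = 0.887), and 0.38 without Col6a1+ replicate 1. A difference of Fgf7 or Fgf10 between the subsets was not detectable beyond the spread between libraries, and the intervals leave room for changes of several fold in either direction.

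Fgf18 (ENSMUSG00000057967, chromosome 11 from 33117430 to 33147400), a ligand of the Fgf8 subfamily, was at 0 in the 3 Col6a1+ libraries and at 0, 1 and 5 normalized counts in the Col6a1− libraries. It was near the limit of detection in both subsets, and no fold is given (limma adjusted p = 0.434).

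The plot of differences sets these values side by side. Fgf7, Fgf9, Fgf10 and Hgf had far lower counts in Col6a1+ replicate 1 than in the other 2 Col6a1+ libraries, with ratios to the mean of those 2 of 0, 0.0455, 0.222 and 0.169. Ratios below 0.25 were found for 17.8% of the 12612 genes that averaged 10 or more both over all libraries and over those 2. Fgf1, Fgfr1, Fgfr2 and Fgfr3 had ratios of 1.04, 0.816, 1.41 and 1.37, and Fgf2 of 0.484. In a limma fit chosen after seeing the data, which left out this library and genes averaging under 10, Fgf9, Fgfr1, Fgfr3 and Hgf passed with adjusted p-values of 0.0244, 0.0212, 0.0297 and 0.0207, beside 7.85% of all genes in this direction.

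**Figure D2:**
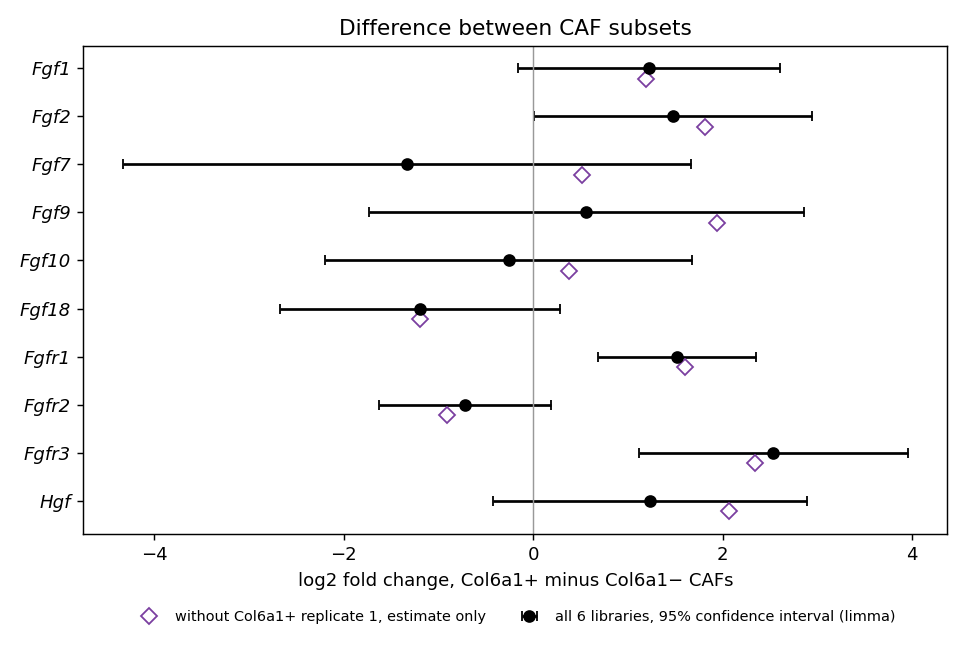
Log2 fold change between the subsets (x axis, log2 scale, positive where Col6a1+ CAFs are higher) for each of the 10 members, with black points and 95% confidence intervals for all 6 libraries and open diamonds for the estimate without Col6a1+ replicate 1. Intervals of Fgfr1, Fgfr3 and Fgf2 lie above 0, and the diamonds of Fgf7 and Fgf10 lie on the other side of 0 from their points.

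For each of the 9 members that averaged 10 or more, the 3 protein-coding genes with the most similar log2 values over the 6 libraries were taken from 11811 such genes. Their Pearson correlations lay between 0.980 and 0.999, which is a description of 6 libraries that share their scaling and depth. The closest to Fgfr1 were Crispld2, Myof and Degs1 (r = 0.998, 0.996 and 0.994), and those to Fgfr3 were Phf11d, Sh2b3 and Arhgap10 (r = 0.999, 0.997 and 0.996). Hgf was closest to Mfap2, a microfibril gene, Gpc6, a glypican, and Socs5 (r = 0.994, 0.990 and 0.987). Fgf2 was closest to Samhd1, Acvrl1 and Wfs1, and Fgf10 to Gsn, Lsm3 and Steap4.

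The other genes of the FGF and HGF pathways were listed by role, and 61 of them had a row in the table. Of these, 57 were tested, since Fgf6, Fgf8, Fgf21 and Klb were at 0 in every library. An adjusted p of 0.05 was passed by 5 with higher and 7 with lower levels in Col6a1+ CAFs, beside 2.66% and 1.96% of all genes tested. The median log2 fold change of the 57 genes was -0.07, and it was 0 with genes absent from a subset set to their lower bound. With blocking, none of the 12 passed (limma adjusted p between 0.0612 and 0.147), and 11 of the 12 did so when the blocked fit was limited to genes averaging 10 or more. The 12 genes kept their direction in each fit that left out 1 library, but the numbers passing went down to between 0 and 2 higher and between 0 and 5 lower, with 0 in either direction without Col6a1− replicate 1. Over all genes, calls in these fits went from 703 higher to between 11 and 453, and from 517 lower to between 1 and 442.

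**Figure D3:**
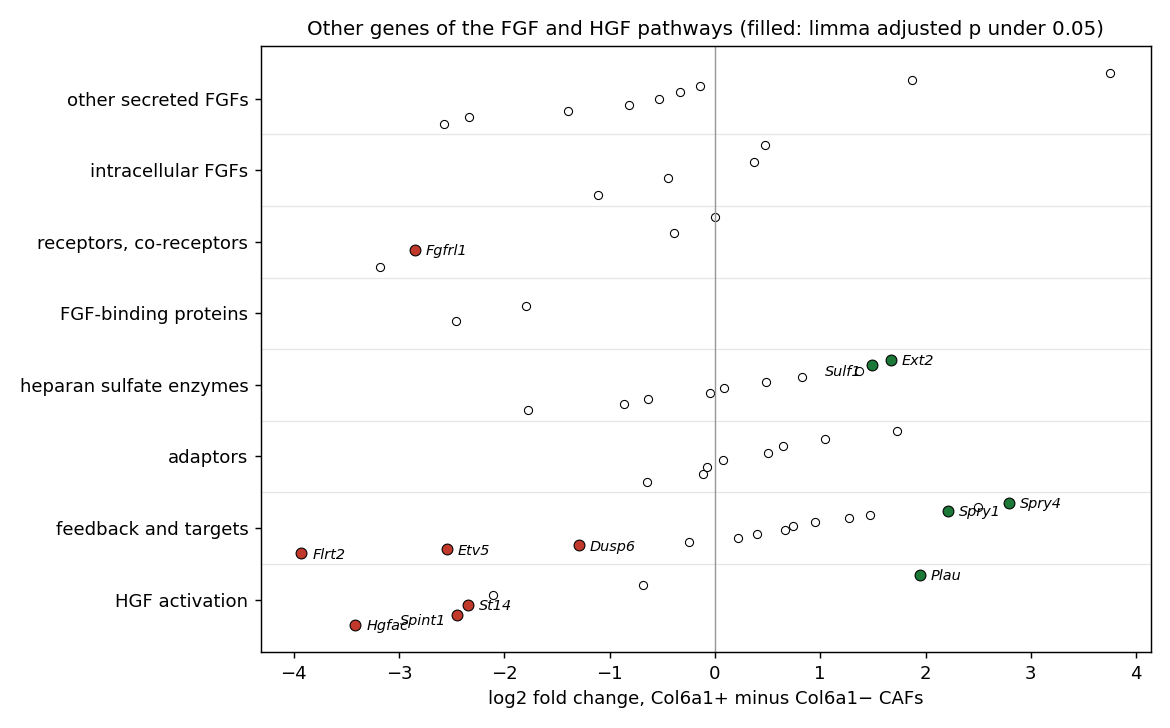
Log2 fold change (x axis, log2 scale, positive where Col6a1+ CAFs are higher) of the 57 tested pathway genes, 1 point a gene, in rows by role. The 12 filled and named points passed a limma adjusted p of 0.05, 5 of them higher (green) and 7 lower (red) in Col6a1+ CAFs, and open points did not.

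The feedback inhibitors and targets of the pathway split by gene. Spry1, an intracellular inhibitor of receptor tyrosine kinase signaling, had 202, 109 and 217 normalized counts in the Col6a1+ libraries and 27, 33 and 50 in the Col6a1− libraries. It rose in Col6a1+ CAFs by 2.22 on the log2 scale (SE 0.45, limma adjusted p = 0.0200). Spry4, of the same family, had 566, 125 and 125 against 23, 42 and 25 normalized counts, higher by 2.80 on the log2 scale (SE 0.60, limma adjusted p = 0.0266). Its value in Col6a1+ replicate 1 was far above the rest, and without that library the log2 fold change was 2.07. Spry2 had 2381, 963 and 892 against 473, 589 and 343 normalized counts and did not pass (log2 fold change 1.47, limma adjusted p = 0.0687), but it passed with blocking over genes averaging 10 or more (0.0231) and in limma-voom (0.0482). The subsets did not overlap for any of the 3 Sprouty genes.

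Etv5 and Dusp6 had the opposite direction. Etv5, an ETS transcription factor induced by FGF signaling, had 39, 66 and 89 normalized counts in Col6a1+ and 350, 272 and 502 in Col6a1− libraries, which is -2.55 on the log2 scale (SE 0.41, limma adjusted p = 0.00670). Dusp6, a phosphatase that inactivates ERK, had 589, 663 and 465 against 1225, 1682 and 1291 normalized counts, which is -1.29 on the log2 scale (SE 0.28, limma adjusted p = 0.0263). In both cases every Col6a1− library was higher than every Col6a1+ library. Etv4, a close relative of Etv5, had 35, 199 and 116 against 26, 47 and 45 normalized counts and did not pass (log2 fold change 1.27, limma adjusted p = 0.361). Without Col6a1+ replicate 1 its log2 fold change was 1.97 (limma adjusted p = 0.0635, and 0.0153 over genes averaging 10 or more). Flrt2, a membrane protein of a family that binds FGF receptors, was at 0 in the 3 Col6a1+ libraries and had 28, 10 and 10 normalized counts in the Col6a1− libraries. Set to a limit of 3 counts per library, its Col6a1+ level was at least 5.33-fold lower (limma adjusted p = 0.0366), and at least 3.33-fold without Col6a1− replicate 1. In all, 2 of the 14 tested genes of this group were higher, 3 were lower and 9 did not pass. Over all genes tested, 2.66% were higher and 1.96% lower. The median change of the group was 0.70 on the log2 scale. The epithelial markers were higher in the same subset as Etv5 and Dusp6, and their part in these genes was not tested.

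**Figure D4:**
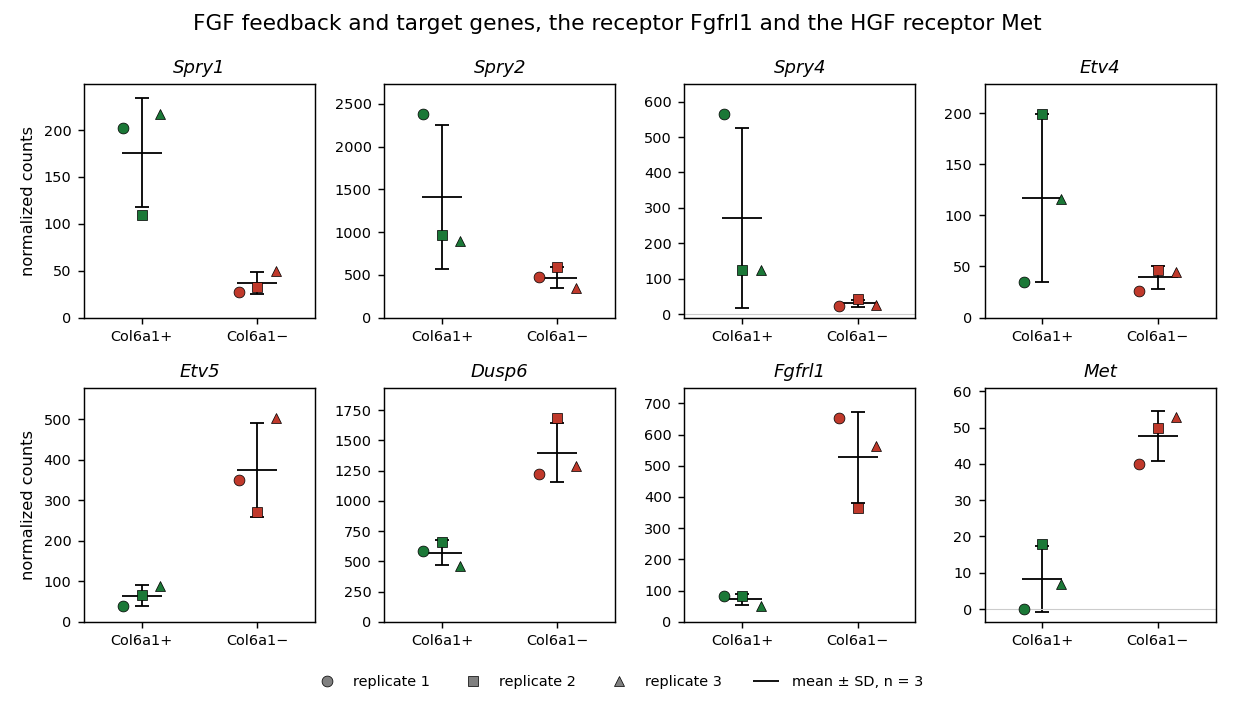
Normalized counts (y axis, linear, a separate scale for each gene) of 6 FGF feedback and target genes, of Fgfrl1 and of Met in the 3 Col6a1+ (green) and 3 Col6a1− (red) CAF libraries, with bars for the mean ± SD. Spry1, Spry2 and Spry4 are higher in every Col6a1+ library, whereas Etv5, Dusp6, Fgfrl1 and Met are higher in every Col6a1− library.

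Among the other receptors, Fgfrl1, which binds FGF ligands but has no kinase domain, fell in Col6a1+ CAFs. It had 83, 82 and 51 normalized counts in the Col6a1+ libraries and 652, 366 and 562 in the Col6a1− libraries, which is -2.85 on the log2 scale (SE 0.36, limma adjusted p = 0.00225). Met, the receptor of HGF, had 0, 18 and 7 against 40, 50 and 53 normalized counts, so that Hgf and its receptor had their higher means in different subsets. The log2 fold change of Met was -3.18 (SE 1.05, limma adjusted p = 0.135) and -1.97 without Col6a1+ replicate 1. Fgfr4 had 0, 11 and 1 against 0, 8 and 5 normalized counts with no detectable difference (limma adjusted p = 0.875). The epithelial markers had their higher levels in the same subset as Fgfrl1 and Met, and their part in these values was not tested.

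The genes that activate HGF or hold its activators in check also had higher levels mainly in Col6a1− CAFs. Of the 6 genes tested, 3 were lower and 1 was higher in Col6a1+ CAFs, beside 1.96% and 2.66% of all genes tested. The median change of the 6 genes was -2.23 on the log2 scale. St14, which encodes the epithelial protease matriptase, had 198, 175 and 104 against 563, 844 and 1004 normalized counts (log2 fold change -2.34, SE 0.35, limma adjusted p = 0.00528). Its inhibitor Spint1 had 145, 143 and 112 against 730, 730 and 723 normalized counts (log2 fold change -2.45, SE 0.28, limma adjusted p = 0.00158). Hgfac, the HGF activator, had 3, 13 and 7 against 63, 100 and 83 normalized counts (log2 fold change -3.41, SE 0.67, limma adjusted p = 0.0178). Plau, which encodes urokinase, was the exception, with 169, 174 and 208 against 73, 31 and 45 normalized counts (log2 fold change 1.95, SE 0.42, limma adjusted p = 0.0261). Since St14 and Spint1 are known as epithelial genes, the higher epithelial markers of the Col6a1− libraries stand beside these values, and their part was not tested.

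Of the 10 heparan sulfate enzymes tested, 2 were higher and none lower at a limma adjusted p of 0.05. At an unadjusted p under 0.05, 4 were higher and 1 was lower. Over all 26402 genes tested, 2.66% were higher and 1.96% lower at the adjusted threshold. An unadjusted p under 0.05 was found for 4234 of them in either direction. Ext2, which builds the heparan sulfate chain, had 192, 147 and 180 against 60, 65 and 39 normalized counts (log2 fold change 1.67, SE 0.38, limma adjusted p = 0.0345). Sulf1, an extracellular sulfatase that trims heparan sulfate and limits FGF binding, had 266, 288 and 354 against 135, 118 and 75 normalized counts (log2 fold change 1.49, SE 0.35, limma adjusted p = 0.0366). None of the 8 adaptors passed, with 1 of them at an unadjusted p under 0.05, and Frs2 had 80, 48 and 59 against 71, 42 and 26 normalized counts (limma adjusted p = 0.642). None of the 4 intracellular FGFs, the 2 FGF-binding proteins or the 9 other secreted FGFs tested passed in limma, with 0, 0 and 3 of them at an unadjusted p under 0.05. Among these ligands, Fgf3 and Fgf4 are named after their values were seen. Fgf3 had 55, 4 and 24 normalized counts in Col6a1+ and 102, 59 and 143 in Col6a1− libraries (limma adjusted p = 0.162, and 0.0453 with blocking over genes averaging 10 or more). Fgf4 was at 0 in the 3 Col6a1− libraries and had 33, 3 and 17 normalized counts in the Col6a1+ libraries, at least 5.89-fold higher against a limit of 3 counts per library (limma adjusted p = 0.0693, limma-voom 0.00472). Without Col6a1+ replicate 1 this bound was 3.33-fold, and Col6a1+ replicate 2 was at the limit itself.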

How the data were processed

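The 6 libraries were sequenced on an Ion Proton instrument from QuantSeq 3′ libraries. The authors aligned reads to mm10 with TopHat2 and, for those left unmapped, Bowtie2. The authors then used GenomicRanges for counting and DESeq through metaseqR, and how the counts were normalized is not given further in the sources used here. The values are the log2 of the normalized count plus 1 as deposited by the authors, and after reversing the log 100% of the values were whole, to a tolerance of 1e-06. The table also holds 6 further columns of per-sample values and the authors' own fold changes and p-values, which were not used. Depth in reads is not stated, and the sums of normalized counts carry the authors' scaling.

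Subsets and replicate numbers were taken from the sample labels. Genes were kept when their normalized counts added up to 1 or more over the libraries used, which left 26402. The subsets were compared with limma 3.58.1 in R 4.3.3 (lmFit, eBayes with a mean-variance trend, 6.48 prior and 4 residual degrees of freedom), two-sided, with Benjamini-Hochberg adjustment over all of them. The fit was tested on simulated data, where it recovered the size of the changes but did not call the smaller ones at the adjusted threshold. In the simulation few genes changed and the spread was fixed, unlike in the deposited data. It therefore does not give the smallest change that the reported fit can call. A level of 0 allows up to 3 counts, for counting error only, since no molecular identifiers are named.

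Over the 13515 genes averaging 10 or more, deviations from the group means correlated by 0.245, 0.125 and 0.144 between libraries of the same number and by -0.245 to 0.150 otherwise. Only replicate number 1 exceeded every pair of different numbers. The correlations therefore do not establish that replicate numbers pair the libraries, each a pool of tumors. The study speaks of 3 sequenced samples in all, each from pooled tumors. Libraries of the same number may therefore share a pool, which the labels do not state. The fit reported has no block, and blocked values are given as an alternative where a call changes and for Fgfr2.

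The members and gene lists were chosen with earlier results of these data known. Named are the 10 members, the listed pathway genes that passed, 10 pathway genes whatever their result (Met, Fgfr4, Fgfrl1, Frs2, Dusp6, Spry1, Spry2, Spry4, Etv4 and Etv5), genes overlapping a member, and the closest patterns of Fgfr1, Fgfr3, Hgf, Fgf2 and Fgf10, those of the other members being not reported here. Spry3 was not analysed here. Coordinates are those of the deposited table. Alternatives were library size alone, quantile normalization, 3 other filters, limma-voom, the block, a pseudocount of 0.1, array weights, unadjusted p-values and leaving out each library. Summaries used Python 3.11.15 with pandas 2.3.3 and NumPy 2.4.6, and plots Matplotlib 3.10.9. Promoter sequences are from RefSeq.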

Additional observations from a re-analysis of the deposited data

How the results depend on the processing

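The number of members higher in Col6a1+ CAFs, 1 in the fit reported, was 0 with library size alone, with no filter, with limma-voom, with a pseudocount of 0.1 and with the replicate block, and 2 (Fgfr1 and Fgfr3) with quantile normalization, with a mean of at least 10, with array quality weights and with the block over genes with a mean of at least 10. It was 3 at unadjusted p-values. It ranged from 0 to 4 when a library was left out, with 4 only without Col6a1+ replicate 1 over genes with a mean of at least 10. Members lower in Col6a1+ CAFs numbered 0 under all of these. Over all genes, 703 were higher in the fit reported, 716 with library size alone, 21 with no filter and 804 with limma-voom. This number was 561 with a pseudocount of 0.1, 775 with quantile normalization and 1031 with array quality weights. With a mean of at least 10 it was 815, and 981 with the block as well. It was 1607 at unadjusted p-values and lay between 11 and 1066 when a library was left out. Pathway genes higher, 5 in the fit reported, numbered 0 with no filter and with the block, 8 with the block and a mean of at least 10, 10 at unadjusted p-values, and 0 to 8 when a library was left out. Pathway genes lower, 7 in the fit reported, numbered 1 with no filter, 0 with the block, 12 at unadjusted p-values and 0 to 9 when a library was left out. Over all genes, 517 were lower in the fit reported, 7 with no filter and 2273 at unadjusted p-values. When a library was left out, between 1 and 1101 of all genes were lower. Fits that left out a library kept genes with at least 1 normalized count in the rest. Of 170 alternative values of single members, 8 changed sign. Fgf10 was 0.33 with quantile normalization and 0.088 with array quality weights, and ranged from -0.78 to 0.38 when a library was left out. Fgf7 ranged from -2.31 to 0.52 and Fgf9 from -0.27 to 1.94. Quantile normalization moved the all-gene median from -0.27 to -0.11 on the log2 scale. Depth limits Fgf18, which stayed at 5 normalized counts or fewer. With the replicate block, calls of all genes numbered 0, so that Fgfr1 and the 12 pathway genes were lost, and over genes with a mean of at least 10 it kept Fgfr1.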
